A study of Arabidopsis thaliana with 4 samples.

Results

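AT1G04040 and AT5G44020 are Arabidopsis thaliana genes of the HAD (haloacid dehalogenase) type acid phosphatase family, and their transcripts were followed on 4 Affymetrix ATH1 arrays. They were taken by locus from the platform annotation, which gives each of them 1 probe set, so that 2 of 13286 loci named by a probe set of their own are described. The genes were chosen by their deposited signals, which were lower under dehydration in earlier results from the same arrays. The dehydration differences in either RNA fraction are therefore given as descriptions and support nothing by themselves.

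The arrays compared plants under non-stress conditions with plants under dehydration stress, with 1 array for each combination of condition and RNA fraction. Non-polysomal RNA was free mRNA or mRNA carrying a single ribosome, and polysomal RNA carried more ribosomes than that. The genotype, the tissue, the plants' age and the length of the dehydration are not given in the sources used here. In such bulk RNA, fewer cells of a type and less of a transcript per cell cannot be told apart.

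Enzymes of the HAD superfamily use a conserved aspartate as the nucleophile that attacks a phosphate ester, and acid phosphatases release phosphate from organic compounds at low pH. In plants the group that holds AT1G04040 and AT5G44020 also holds the vegetative storage proteins VSP1 and VSP2, which respond to jasmonate. A transcript on polysomes carries several ribosomes and is usually being translated, while non-polysomal mRNA is idle, newly loaded or held back.

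The deposited signal intensities share a common trimmed mean, so each value is relative to the average transcript of its own array. The median signal of the 4 arrays ranged from 185.6 to 249.6. A lower limit of 69.9 was placed on all signals, and 18.8% to 29.2% of the probe sets of an array lay under it. The 27 probe sets for unspiked bacterial sequences, which should find no target, reached at most 70.8 on any array. Each group has 1 array, so no difference was tested and the number of arrays limits the precision. As the nearest stand-in for an error, the SD of the log2 difference between probe sets of the same locus was 0.44 to 0.60 over the comparisons (46 loci), which covers differences between probes and not between plants. Both unstressed arrays were hybridized on 1 day and both dehydration arrays on another, so hybridization day and dehydration cannot be told apart in any value below that sets dehydration against non-stress. Of a list of 7 dehydration genes, written with earlier results of these data known, 3 had a probe set naming 1 locus. These were LEA4-5, COR47 and LTI30, encoding late embryogenesis abundant proteins. All were at least 2-fold higher under dehydration in both fractions. Among the measured probe sets described below, 6.36% were so in polysomal and 4.32% in non-polysomal RNA. The log2 difference in polysomal RNA was at least 6.62 for LEA4-5, 2.17 for COR47 and 4.04 for LTI30. In non-polysomal RNA it was 3.05, 1.45 and 1.13 in the same order.

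The AT1G04040 probe set gave 579 on the non-polysomal and 869.5 on the polysomal array of unstressed plants. Under dehydration it gave 194.9 in non-polysomal RNA and 10.9 in polysomal RNA. The gene was thus bright on both unstressed arrays, dimmer on the dehydration non-polysomal array and under the lower limit on the dehydration polysomal array. On that last array 17 of the 27 unspiked controls lay below it and 10 lay at or above it, whereas it exceeded all 27 on each of the other arrays.

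The AT5G44020 probe set gave 787.8 in non-polysomal and 913.5 in polysomal RNA without stress. Under dehydration the signals were 148.1 and 139.6. Both unstressed arrays were high and both dehydration arrays low, with little difference between the fractions of either condition. All 4 values lay above the lower limit and above every unspiked control of their array. In polysomal RNA of unstressed plants the genes stood at similar places within the array, AT1G04040 above 82.9% and AT5G44020 above 83.7% of the probe sets other than controls. In dehydration polysomal RNA these places were 9.58% and 44.1%.

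**Figure D1:**
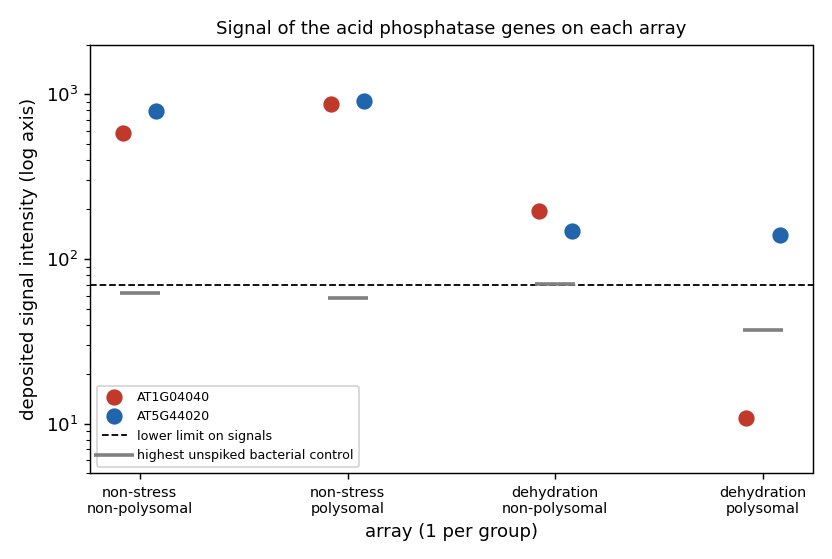
Deposited signal intensity (log axis) of AT1G04040 (red) and AT5G44020 (blue) on each of the 4 arrays, 1 array per group, with the lower limit of 69.9 (dashed) and the highest unspiked bacterial control of each array (grey bars). Both genes are high on the unstressed arrays, and AT1G04040 drops to 10.9, under the limit and the highest control, on the dehydration polysomal array.

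The effect of dehydration was compared within each fraction. In polysomal RNA AT1G04040 was at least 12.4-fold lower under dehydration (a log2 difference of at most -3.64), a bound because its dehydration signal was under the limit. AT5G44020 was 6.54-fold lower there (log2 -2.71), measured on both sides. In non-polysomal RNA the order was turned, with AT1G04040 2.97-fold lower (log2 -1.57) and AT5G44020 5.32-fold lower (log2 -2.41). At this limit AT1G04040 showed the larger difference in polysomal RNA and AT5G44020 the larger one in non-polysomal RNA. With the limit raised to percentile 40 (136.5) the bound for AT1G04040 in polysomal RNA was 6.37-fold (log2 -2.67), and the order in that fraction was no longer shown.

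Both genes were at least 2-fold lower in both fractions, and this count is fixed by the way they were chosen. Of 11373 measured probe sets, those whose mean log2 signal reached the median of all, 5.58% were at least 2-fold lower and 6.36% at least 2-fold higher in polysomal RNA. In non-polysomal RNA 4.56% were at least 2-fold lower and 4.32% at least 2-fold higher. The higher calls made up 48.6% of the calls in non-polysomal RNA, or 68.9% with arrays scaled to an equal median and 81.6% with scaling on the spiked hybridization controls. Lower calls in both fractions were shared by 315 probe sets, which is 49.6% of the 635 in polysomal and 60.7% of the 519 in non-polysomal RNA. AT1G04040 counts as measured here because its signal of 10.9 was raised to the limit: with the limit at percentile 10, or with none, its mean log2 signal fell short of the filter. Counted from the lowest, AT5G44020 held rank 18 of the measured probe sets in polysomal and rank 19 in non-polysomal RNA, where AT1G04040 held rank 137. Relative to the median of measured probe sets, over the 4 scalings used, the bound for AT1G04040 was between -3.80 and -3.57 in polysomal RNA, and its value in non-polysomal RNA was -1.56 to -1.55. The same ranges for AT5G44020 were -2.71 to -2.45 and -2.45 to -2.39.

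Few measured probe sets as bright without stress reached signals as low under dehydration. The genes were chosen for low dehydration signals on these arrays, so the counts are descriptions and support nothing by themselves. The filter on mean signal can also leave out bright probe sets that drop far, and AT1G04040 passes it here through its raised signal. Of 3879 measured probe sets at or above the AT1G04040 signal of 869.5 in unstressed polysomal RNA, 1 was under the limit in dehydration polysomal RNA, AT1G04040 itself. Of 3702 at or above the AT5G44020 signal of 913.5, 3 were as low as its 139.6, itself included. In non-polysomal RNA 18 of 6020 probe sets as bright as AT1G04040 were as low as its 194.9. For AT5G44020 the count was 4 of 4391.

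**Figure D2:**
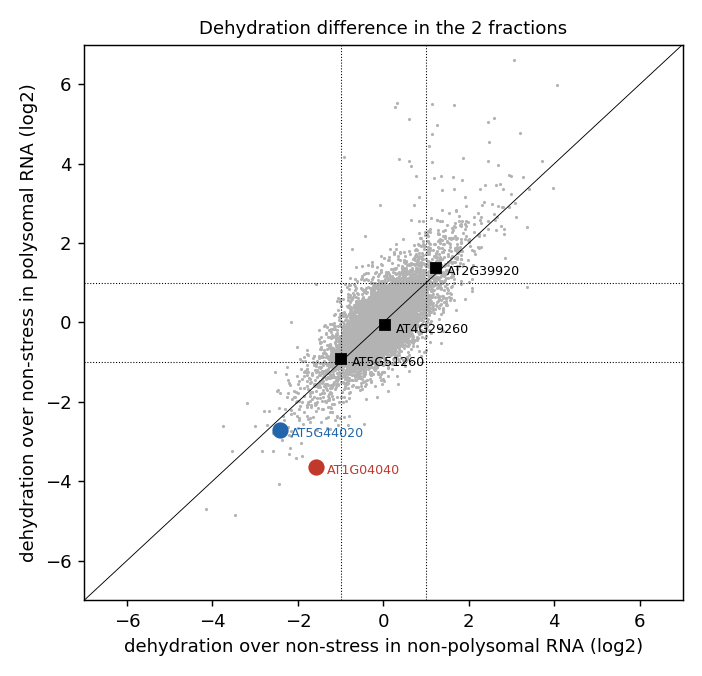
Log2 difference of dehydration over non-stress in non-polysomal RNA (horizontal) and polysomal RNA (vertical) for 11373 measured probe sets (grey), with AT1G04040 (red), AT5G44020 (blue) and the other measured HAD acid phosphatase genes (black squares). Dotted lines mark 2-fold and the solid line equal differences: AT5G44020 (-2.41, -2.71) lies close to that line, and AT1G04040 (-1.57, at most -3.64) well below it.

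The ratio of polysomal to non-polysomal signal was then compared between conditions. Without stress both genes leaned slightly towards polysomal RNA, AT1G04040 with a log2 ratio of 0.59 and AT5G44020 with 0.21, against a median of -0.065 over measured probe sets. Neither was 2-fold from equality, a distance that 8.56% of measured probe sets passed on the high side and 11.9% on the low side. Under hybridization control scaling the ratio of AT1G04040 was 1.06 and so past 2-fold. Relative to the median of measured probe sets it was 0.64 to 0.65 over the scalings, and that of AT5G44020 was 0.22 to 0.28.

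Under dehydration the ratio of AT1G04040 was at most -1.48, a polysomal signal at least 2.79-fold under the non-polysomal one. AT5G44020 stayed near equality with a log2 ratio of -0.085, whose sign was turned by equal medians (0.17), quantile normalization (0.23) and hybridization control scaling (0.030). AT1G04040 but not AT5G44020 was thus at least 2-fold lower in polysomal than in non-polysomal RNA, as were 11.6% of measured probe sets, while 9.06% were at least 2-fold higher. With the lower limit raised to percentile 40 the ratio of AT1G04040 was bounded only at -0.51, short of 2-fold.

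The change of this ratio by dehydration was at most -2.06 on the log2 scale for AT1G04040, a shift of at least 4.18-fold. It was -0.30 for AT5G44020. AT5G44020 held rank 2727 from the lowest of the 11373, and AT1G04040 was given no rank because its value is a bound. A change at least 2-fold downwards was found for 1.62% of measured probe sets and at least 2-fold upwards for 2.80%. Raising the lower limit to percentile 40 reduced the bound for AT1G04040 to -1.10. The change is formed from all 4 arrays and so shares its values with the dehydration differences by which the genes were chosen.

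The share of higher among 2-fold calls depended on the scaling in these comparisons. It was 41.9% for the ratio without stress, 76.1% with equal medians and 81.7% with hybridization control scaling. For the ratio under dehydration it was 43.8%, 69.5% and 56.0% in the same order. For the change of ratio it was 63.3%, 41.5% and 11.6%, and 53.3% with quantile normalization. Scaling by equal medians moved the median of measured probe sets by 0.17 for dehydration in non-polysomal RNA, 0.37 for the ratio without stress, 0.26 for the ratio under dehydration and -0.11 for the change of ratio. Hybridization control scaling moved them by 0.30, 0.48, 0.12 and -0.36. Relative to the median the bound on the change of ratio of AT1G04040 was between -2.24 and -2.02 over the scalings, and the change of AT5G44020 was -0.31 to -0.0025.

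**Figure D3:**
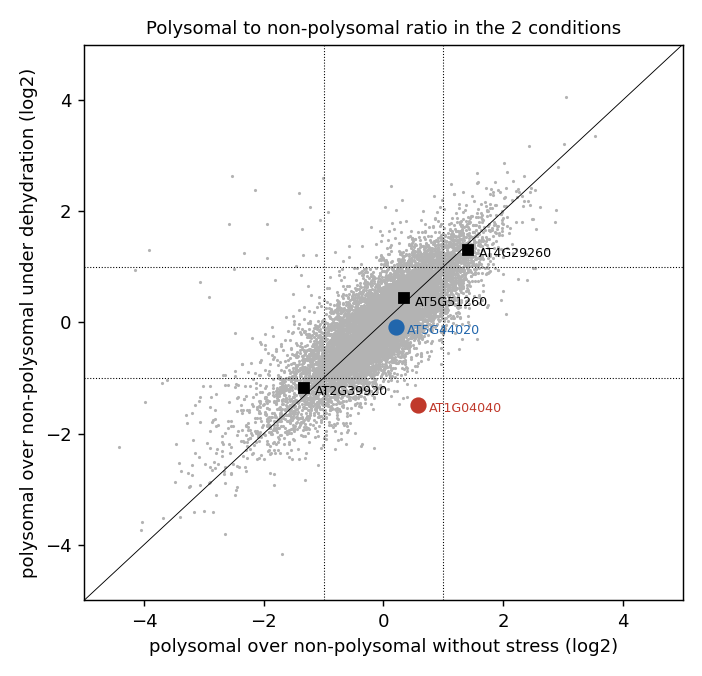
Log2 ratio of polysomal over non-polysomal signal without stress (horizontal) and under dehydration (vertical) for measured probe sets (grey), AT1G04040 (red), AT5G44020 (blue) and the other measured HAD acid phosphatase genes (black squares); dotted lines mark 2-fold and the solid line equal ratios. AT1G04040 lies at 0.59 and at most -1.48, away from the solid line, while AT5G44020 lies at 0.21 and -0.085, near it.

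The genes were set against each other in each comparison. For dehydration over non-stress in polysomal RNA, the log2 difference of AT1G04040 minus that of AT5G44020 was at most -0.93, where the SD between probe sets of 1 locus was 0.44. In non-polysomal RNA it was 0.84 higher for AT1G04040, with an SD of 0.48. The ratio without stress differed by 0.37, inside the SD of 0.60. The ratio under dehydration differed by at most -1.39 (SD 0.51), and the change of ratio by at most -1.77 (SD 0.60). At the limit of 69.9 the difference between the genes was larger than this SD in each comparison except the ratio without stress. The SD does not cover differences between plants or arrays, and pairs of probe sets of a locus can also differ by more. With the limit at percentile 40 the difference was 0.039 for dehydration in polysomal RNA and -0.43 for the ratio under dehydration, both inside the SD. It was -0.80 for the change of ratio. No test of these differences was possible with 1 array per group.

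Within the HAD subfamily IIIB acid phosphatases, a list of 10 loci entered from general knowledge of the family, 8 had a probe set that names 1 locus, and 5 of these were measured. VSP1 and VSP2 were not analysed here. In polysomal RNA 2 of the 5 were at least 2-fold lower under dehydration, AT1G04040 and AT5G44020 themselves, 1 was at least 2-fold higher and 2 lay between. The same counts held in non-polysomal RNA, and the lower genes are those chosen for their low values. Over all measured probe sets 5.58% were at least 2-fold lower and 6.36% at least 2-fold higher in polysomal RNA. In non-polysomal RNA these shares were 4.56% and 4.32%. The list median was -0.92 in polysomal and -0.996 in non-polysomal RNA, against -0.0040 and -0.018 over all measured probe sets, and the genes chosen for their low values enter it.

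AT2G39920, listed as a phosphatase of the same group, went the other way. Without stress it gave 922.8 in the non-polysomal and 366.5 in the polysomal fraction, and under dehydration 2159.5 and 952.1. Both dehydration signals were above those of the same fraction without stress, the log2 difference being 1.23 for non-polysomal and 1.38 for polysomal RNA. Its polysomal to non-polysomal ratio was low in either condition, -1.33 and -1.18, or -0.86 without stress under hybridization control scaling and -0.92 under dehydration with equal medians.

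AT5G51260, another listed phosphatase, gave 370 and 472.1 without stress and 185.5 and 250.2 under dehydration, in non-polysomal and polysomal RNA. It was lower in both fractions under dehydration, at -0.996 and -0.92, both just short of 2-fold. Its ratio was alike in both conditions, 0.35 and 0.43. AT4G29260 gave 248.2 and 664.1 without stress and 255.2 and 629.7 under dehydration. Its signals were level between conditions, with log2 differences of 0.040 and -0.077, and it was the measured listed gene with the highest polysomal to non-polysomal ratio, 1.42 without stress and 1.30 under dehydration. The change of ratio was -0.12 for AT4G29260, 0.080 for AT5G51260 and 0.15 for AT2G39920, the latter pair turning to -0.28 and -0.21 under hybridization control scaling. Of the 5 measured genes of the list, AT1G04040 alone had a change of ratio of at least 2-fold, under each of the 4 scalings. Over all measured probe sets 1.62% changed at least 2-fold downwards and 2.80% at least 2-fold upwards. AT1G04040 counts as measured only through its raised signal. Its change also shares values with the dehydration differences by which it was chosen, so the count supports nothing by itself.

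The other 3 listed genes were dim. AT2G38600 gave signals of 58.3 to 121.2, AT4G25150 of 51.8 to 184.1 and AT4G29270 of 15.4 to 151.7 over the 4 arrays. Each lay under the limit on at least 1 array, so some of their differences are bounds or have no value. In non-polysomal RNA AT2G38600 went from 121.2 without stress to 58.3 under dehydration, a difference of at most -0.79 on the log2 scale, and AT4G29270 was under the limit on both polysomal arrays.

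**Figure D4:**
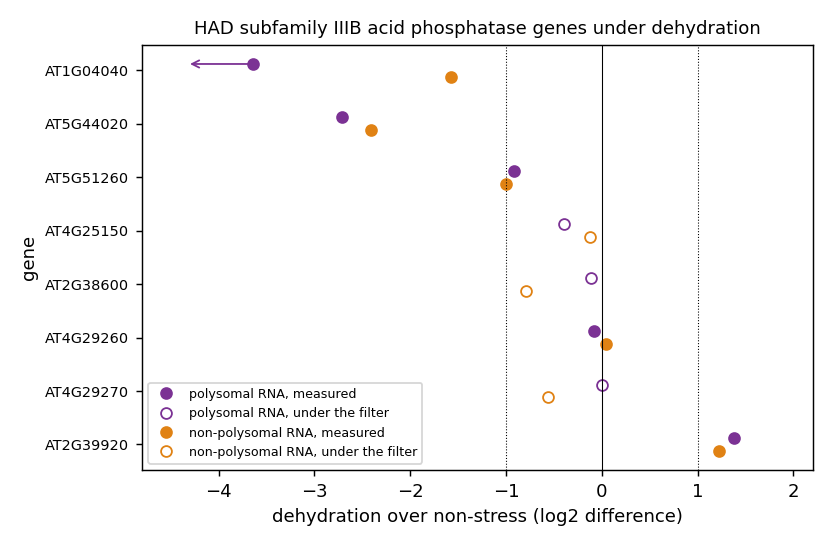
Log2 difference of dehydration over non-stress in polysomal (purple) and non-polysomal RNA (orange) for the 8 HAD subfamily IIIB acid phosphatase genes with a probe set; filled points are measured, open points lie under the filter on mean signal, the arrow marks a bound and dotted lines mark 2-fold. AT1G04040 and AT5G44020 lie below -1 in both fractions, AT2G39920 lies above 1 in both, and the points of the others lie between, some of them set by the limit (AT2G38600 in non-polysomal, AT4G25150 in polysomal and AT4G29270 in polysomal RNA).

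Purple acid phosphatases are metal-dependent enzymes that release phosphate at low pH without belonging to the HAD superfamily. Of 29 such loci 3 had a probe set naming 1 locus, and 2 were measured. AT1G13750 gave 550.5 and 405.9 without stress and 470.6 and 747.1 under dehydration, in non-polysomal and polysomal RNA, so that its polysomal signal was higher under dehydration and its non-polysomal signal about level. The log2 differences were 0.88 in polysomal and -0.23 in non-polysomal RNA, the latter 0.076 under hybridization control scaling. Its ratio was -0.44 without stress, or 0.036 under hybridization control scaling, and 0.67 under dehydration. Its change of ratio was 1.11, opposite in sign to that of AT1G04040, and 0.75 under hybridization control scaling. AT1G25230 gave 544.3 and 253.8 without stress and 316.4 and 226.7 under dehydration, with log2 differences of -0.16 in polysomal and -0.78 in non-polysomal RNA. Its ratio without stress was -1.10, or -0.63 under hybridization control scaling, and -0.48 under dehydration. Its change of ratio was 0.62, and 0.26 to 0.63 over the 4 scalings. PAP20 lay under the limit on all 4 arrays and so has no value in any comparison. The median of the 2 measured genes was 0.36 in polysomal and -0.50 in non-polysomal RNA. Of 10 trehalose-phosphate phosphatase loci, also HAD enzymes, and of 19 loci of the phosphate starvation response, none had a probe set named here, so neither group was analysed here.

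The loci whose signals ran most like those of each gene were found by the Euclidean distance between log2 signals on the 4 arrays, each gene centred on its own mean, among 5958 other measured loci. The distances use the same arrays by which the genes were chosen, and 4 arrays give many loci a similar course. Those of AT1G04040 also rest on its raised signal. AT5G44020 was nearest to AT1G29660 (distance 0.40), EXPA8 (0.46), an expansin that loosens cell walls, and AT5G63180 (0.59). They were followed by AT1G60590, SWEET2, a sugar transporter gene, AT5G48490, AT4G23820, a pectin lyase-like gene, AT1G19450, AT3G19680 and AT5G59480 (0.83).

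AT1G04040 had no locus as close. EXPA8 was the nearest at 0.66, followed by AT4G23820 (0.78), AT4G18970 (0.93), AT1G29660, SCPL50, a serine carboxypeptidase-like gene, AT1G22690 of the GASA family, AT1G23030, AT5G44020, AT3G06070 and AT5G59480 (1.08). AT5G44020 was the eighth nearest to AT1G04040 at 1.02, and AT1G04040 held place 28 in the order around AT5G44020. The lists share 4 loci, AT1G29660, EXPA8, AT4G23820 and AT5G59480.

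EXPA8, close to both genes, gave 1360.3 and 2000.8 without stress and 295.6 and 199.6 under dehydration, in non-polysomal and polysomal RNA. It was high on both unstressed arrays and low on both dehydration arrays, with a log2 difference of -3.33 in polysomal and -2.20 in non-polysomal RNA. AT1G29660 gave 2955.3 and 3241 without stress and 755.4 and 588.5 under dehydration, and AT1G22690 gave 919.8 and 1948.6, then 170.2 and 116.5. All 20 entries of the lists (16 loci) were at least 2-fold lower under dehydration in both fractions. This largely follows from their nearness to 2 genes chosen as low under dehydration. Over all measured probe sets the shares were 5.58% in polysomal and 4.56% in non-polysomal RNA. Under hybridization control scaling AT4G18970, SCPL50 and AT1G23030 fell short of 2-fold in non-polysomal RNA, at -0.82, -0.77 and -0.90. The change of ratio was -1.12 for EXPA8, -1.33 for AT4G18970, -1.28 for SCPL50 and -1.63 for AT1G22690. At the limit of 69.9 each was nearer to 0 than the bound of -2.06 for AT1G04040. With the limit at percentile 40 (136.5) that bound was only -1.10. EXPA8 and AT4G18970 lay above 136.5 on every array and so kept their values, and the order was no longer shown. Over the scalings EXPA8 ranged from -1.48 to -0.79, not always past 2-fold, while AT4G18970, SCPL50 and AT1G22690 stayed past it.

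**Figure D5:**
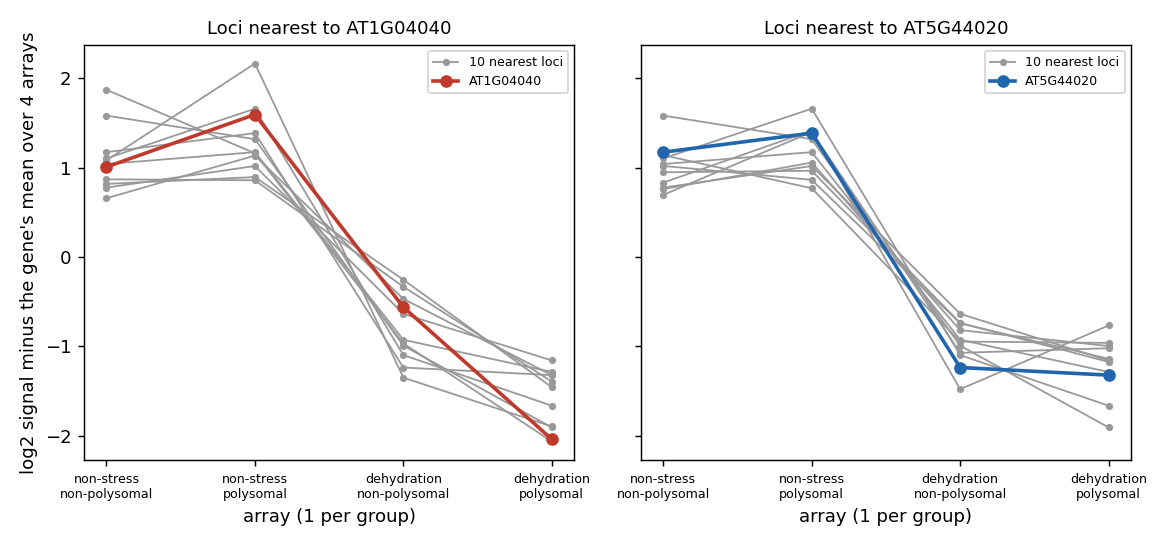
Log2 signal minus each gene's mean over the 4 arrays for AT1G04040 (left, red) and AT5G44020 (right, blue), each with its 10 nearest loci (grey lines), signals under 69.9 being raised to it. All lines run from high values on the unstressed arrays to low ones on the dehydration arrays. On the left the lines go on downwards from the non-polysomal to the polysomal dehydration array, that of AT5G44020 only slightly (-0.085). Most loci on the right also go down there, while AT1G60590 (0.71) and AT5G63180 (0.052) go up.

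AT1G04040 lies on chromosome 1 and AT5G44020 on chromosome 5, so they are not neighbours. Of the 2 loci on either side of each gene in the TAIR10.1 gene table, AT1G04030 next to AT1G04040 and AT5G44010 next to AT5G44020 had a probe set here, and neither was measured. AT1G04030 gave 75.9 and 44.9 without stress and 77.0 and 45.6 under dehydration, in non-polysomal and polysomal RNA. AT5G44010 gave 84.6 and 72.6, then 38.0 and 87.2. These signals lay under or near the limit on every array, where the size of a drop could not be measured. In non-polysomal RNA AT5G44010 went from above the limit to under it, a log2 difference of at most -0.27. In polysomal RNA its log2 difference was 0.26. The loci on the other side, the lncRNA AT1G04237 and the cellulose synthase gene CESA4 among them, had no probe set named here.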

How the data were processed

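RNA from unstressed and dehydrated Arabidopsis was hybridized to 4 ATH1 arrays, 1 per group, and groups follow the labels. The deposited table gives the authors' signal intensity per probe set on a linear scale, made with software that the sources used here do not name. Per the file headers, hybridization day and condition coincide. Each array was scaled to an equal 2% trimmed mean (the deposited values already were), signals under 69.9 (median over arrays of percentile 25) were raised to it, and log2 differences were formed for 5 comparisons with Python 3.11.15 and pandas 2.3.3. Values resting on a raised signal are bounds. Leaving out 64 control probe sets, 11373 of 22746 others counted as measured (mean log2 signal of at least 7.74). By the platform annotation, possibly out of date, 13513 probe sets have 1 gene symbol, 503 several and 8730 others none, and 13436 matched the TAIR10.1 gene table. Loci with several probe sets are given by the brightest. No test was possible. The code was tested on simulated arrays.

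Named were both genes, every HAD subfamily IIIB member with a probe set, members of the other lists at least 2-fold from 0, the 10 nearest loci of each gene and the loci beside them. AT1G13750, AT1G25230 and PAP20 are named as the only members of their list with a probe set, the first 2 in every comparison. The genes, lists and rules were chosen with earlier results of these data known. No sequences of the genes were used here.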

Additional observations from a re-analysis of the deposited data

Results flagged for a closer look

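Signs that differed between conditions or fractions were looked for among the measured acid phosphatase genes, and with 1 array per group none of these differences was tested. The polysomal to non-polysomal ratio of AT1G04040 was above 0 without stress (0.59) and below 0 under dehydration (at most -1.48), a change of at most -2.06 on the log2 scale. For AT5G44020 the ratio also passed 0, from 0.21 to -0.085, but the change of -0.30 is smaller than the SD of 0.60 between probe sets of a locus, and the sign under dehydration turned with the scaling. The purple acid phosphatase gene AT1G13750 was higher under dehydration in polysomal RNA (0.88) and lower in non-polysomal RNA (-0.23). Its ratio went from -0.44 without stress to 0.67 under dehydration, the same change of 1.11. Under hybridization control scaling its non-polysomal difference was 0.076 and its ratio without stress 0.036, so that neither sign differed. AT4G29260 was at -0.077 in polysomal and 0.040 in non-polysomal RNA, a difference of -0.12, also inside that SD.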

How the results depend on the processing

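No paired analysis was possible because each group has 1 array. Over 7 alternatives per value (3 scalings, 3 other lower limits and a pseudocount), the 10 values of the 2 genes moved by less than the SD between probe sets in 60 of 70 cases, and the only change of sign was that of AT5G44020 in the ratio under dehydration. The other 10 cases are as follows. For AT1G04040, dehydration in polysomal RNA, the ratio under dehydration and the change of ratio were -5.77, -3.61 and -4.20 with the limit at percentile 10, -2.67, -0.51 and -1.10 at percentile 40, and -6.32, -4.16 and -4.75 with no limit, where the value rests on a signal among the unspiked controls. AT5G44020 was at -2.23 in polysomal RNA with a pseudocount, which draws dim signals together by construction. In non-polysomal RNA under dehydration the ranges were -1.57 to -1.27 for AT1G04040 and -2.45 to -1.98 for AT5G44020, both past 2-fold throughout. Counts of probe sets past 2-fold, in both directions together, moved by over 1.5 times in 10 of 45 cases. For the change of ratio the count of 502 became 930 under hybridization control scaling, 315 with a pseudocount, 1219 with no filter and 181 with the filter at percentile 75. Without a filter the 1010 for dehydration in non-polysomal RNA became 1629 and the 2321 for the ratio without stress 3731. With the filter at percentile 75 they became 543 and 1229, the 1358 for dehydration in polysomal RNA became 714 and the 2353 for the ratio under dehydration 1244, fewer probe sets being counted. The cause of the move under hybridization control scaling was not tested. The HAD list median for non-polysomal RNA was -0.48 with the limit at percentile 10 or none, where 4 genes were measured and AT1G04040 was not, and its median ratio under dehydration (-0.085) was above 0 under 3 scalings and those 2 limits.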
